A study of Mus musculus with 9 samples.

Results

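Chromatin accessibility was followed around 9 genes that encode chains of the basement membrane: the type IV collagens Col4a1 and Col4a2, the laminin alpha chains Lama3, Lama4 and Lama5, the laminin beta chains Lamb1 and Lamb3, the laminin gamma chain Lamc1, and the linker nidogen Nid1. An ATAC-seq peak was taken where its centre lay in the gene body of a member on GRCm38 (mm10) or within 50 kb of either end. This gave 259 of 146734 peaks, of which 147 lay in the gene body of a member and 41 inside another protein-coding gene. Col4a1 and Col4a2 lie head to head and share 19 peaks, so the 9 windows hold 278 pairs of a gene and a peak. A peak in a window may act on another gene, and which gene a peak acts on was not measured. All 259 peaks passed the filter on low values, a mean of at least 10.

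The cells were D2A1-d, a mouse breast carcinoma line labelled as wild type and untreated, and every group had been transduced. They carried hairpin #1 against Med4 (shMed4 #1), hairpin #4 against Med4 (shMed4 #4) or a non-targeting control (NTC), with 3 libraries labelled as biological replicates in each group. In ATAC-seq a transposase inserts adapters where chromatin is open, so more reads in a peak mean a more accessible site. Mediator, to which MED4 belongs, passes signals from transcription factors on to RNA polymerase II. The transcript that the hairpins target is not measured by this assay, so the depletion was not checked here. In bulk libraries, more cells with an open site and a more open site in each cell cannot be told apart.

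Basement membranes are thin sheets of matrix beneath epithelia and around vessels, muscle and fat. Laminins are trimers of an alpha, a beta and a gamma chain that polymerise at the cell surface, where integrins and dystroglycan bind them. Type IV collagen forms another network, built from triple helices of its alpha chains, and nidogen bridges laminin and collagen. In the mammary gland this matrix separates the epithelium from the stroma.

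The libraries held 44.8 to 98.9 M reads in peaks, a median of 110 to 247 reads per peak. Values are normalised reads per peak, as the authors deposited them. All pairs of libraries differed by more than sampling noise: the chi-square per degree of freedom was 1.99 to 2.92 within groups and 9.96 to 29.1 between groups. Of 6 epithelial markers 1 had a peak within 1 kb of its start (Krt18, 347 to 379 normalised reads in shMed4 #1, 438 to 510 in shMed4 #4 and 160 to 170 in NTC), and Epcam, Cdh1, Krt8, Krt5 and Krt14 had none. Of 4 mesenchymal markers Vim, Fn1 and Zeb1 had one, summing to 5543 to 5656 in shMed4 #1, 5400 to 5947 in shMed4 #4 and 6353 to 7053 in NTC. Vim fell over both hairpins (log2 fold -0.43), and Fn1 (-0.03) and Zeb1 (0.00) were not called. Vim lies on chromosome 2, where 52.4% of tested peaks fell (median -0.25). Of 4 fibroblast markers Pdgfrb and Col1a1 had one (2308 to 2408 in shMed4 #1, 2292 to 2531 in shMed4 #4 and 2536 to 2648 in NTC). Of 4 endothelial markers Cdh5 had one (413 to 472 in shMed4 #1, 268 to 303 in shMed4 #4 and 231 to 250 in NTC). No strand was given for Cdh5, Fn1, Zeb1, Pdgfrb and Col1a1. Their peaks lay within 1 kb of either gene end, which may not be the start. Most of the epithelial markers thus had no start peak in cells labelled as a carcinoma. The part of these markers in the results was not tested.

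Promoter sequences from RefSeq (GRCm38.p6) are shown for 3 starts that were lower with each hairpin. Lower starts were common: of 12121 genes with a start peak, 45.7% were lower over both hairpins and 9.98% higher (median log2 fold -0.11). The sequences run 5′ to 3′ on the strand of the gene, from 250 bases before the annotated start to 50 after it. Capitals mark CCAAT, the motif of NF-Y, and GGGCGG, the motif of Sp and KLF factors, on either strand (as ATTGG and CCGCCC on the other strand), and no matches overlap. Col4a1 is at chr8:11312777-11313076 on the minus strand, Lama5 at chr2:180225810-180226109 on the minus strand and Lamb1 at chr12:31265043-31265342 on the plus strand.
Col4a1: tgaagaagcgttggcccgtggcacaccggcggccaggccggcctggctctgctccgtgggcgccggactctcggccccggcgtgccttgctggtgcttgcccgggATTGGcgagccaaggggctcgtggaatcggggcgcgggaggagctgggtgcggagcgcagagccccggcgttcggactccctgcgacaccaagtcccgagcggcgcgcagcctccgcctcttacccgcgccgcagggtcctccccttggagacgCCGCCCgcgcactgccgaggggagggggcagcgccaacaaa
Lama5: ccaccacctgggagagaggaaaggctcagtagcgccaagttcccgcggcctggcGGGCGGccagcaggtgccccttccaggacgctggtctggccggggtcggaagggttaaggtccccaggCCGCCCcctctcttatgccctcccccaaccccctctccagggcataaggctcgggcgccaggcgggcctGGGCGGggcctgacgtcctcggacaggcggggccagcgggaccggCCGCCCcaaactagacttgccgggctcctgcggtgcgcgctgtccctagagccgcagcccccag
Lamb1: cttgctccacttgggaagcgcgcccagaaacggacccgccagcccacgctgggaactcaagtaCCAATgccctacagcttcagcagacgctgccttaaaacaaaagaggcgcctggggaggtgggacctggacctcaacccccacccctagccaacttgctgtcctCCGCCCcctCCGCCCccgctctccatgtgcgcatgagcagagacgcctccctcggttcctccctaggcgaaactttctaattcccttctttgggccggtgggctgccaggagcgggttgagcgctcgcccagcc

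The Col4a1 promoter held 1 CCAAT and 1 GGGCGG, the Lama5 promoter 4 GGGCGG and no CCAAT, and the Lamb1 promoter 1 CCAAT and 2 GGGCGG. Of the 32851 promoters of the same length in the table, 37.4% held CCAAT and 35.7% held GGGCGG. Neither the AP-1 motif TGANTCA (in 7.81% of promoters) nor the TEAD motif GGAATG (in 14.7%) was found in these 3 windows on either strand. The peaks at the starts overlapped the windows by 272 bases at Col4a1, 271 at Lama5 and 211 at Lamb1. The Nid1 promoter had no overlapping peak. The promoter table was matched for 6 of the 9 genes and not for Lama3, Lama4 and Lamc1.

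Over both hairpins against NTC, peaks around the basement membrane genes were more often lower than higher. Of the 259 peaks, 105 fell (40.5%) and 51 rose (19.7%), whereas 26.2% of all tested peaks were lower and 27.9% higher. The median log2 fold of the members was -0.14, against -0.02 over all tested peaks. The genes differed. Of the 105 lower peaks, 34 lay in the Lama5 window, and 55.6% of the peaks 50 kb to 1 Mb from Lama5 fell too. More peaks rose than fell around Lama3 (14 and 11), Lama4 (6 and 1), Lamb3 (6 and 2) and Lamc1 (9 and 5). Calls are from limma fitted on all peaks, on log2 of the normalised value plus 1, with Benjamini-Hochberg adjusted p under 0.05. Fold changes are on that log2 scale, which understates the change of low peaks, and those over both hairpins weight the hairpins equally.

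With shMed4 #1, 102 member peaks were lower and 61 higher, where 24.9% of all tested peaks were lower and 27.9% higher. With shMed4 #4, 94 were lower and 41 higher, where 24.3% of all were lower and 26.2% higher. When libraries were centred on peaks at gene ends, the shMed4 #4 split became 62 lower and 50 higher, or 44.6% of its calls higher, against 68.5% of the calls over all tested peaks in that scaling. The hairpins share their NTC libraries. Called in the same direction with each hairpin were 68 lower peaks (26.3%, against 13.5% of all tested peaks) and 28 higher peaks (10.8%, against 17.6%). Another 11 were called in opposite directions (4.25%, against 3.17%).

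Changes of 2-fold or more were few. Of the member peaks, 8 rose and 5 fell by at least 2-fold over both hairpins, or 3.09% and 1.93%, against 5.97% and 0.96% of all tested peaks. The folds ran from -1.35 to 2.74 on the log2 scale.

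**Figure D1:**
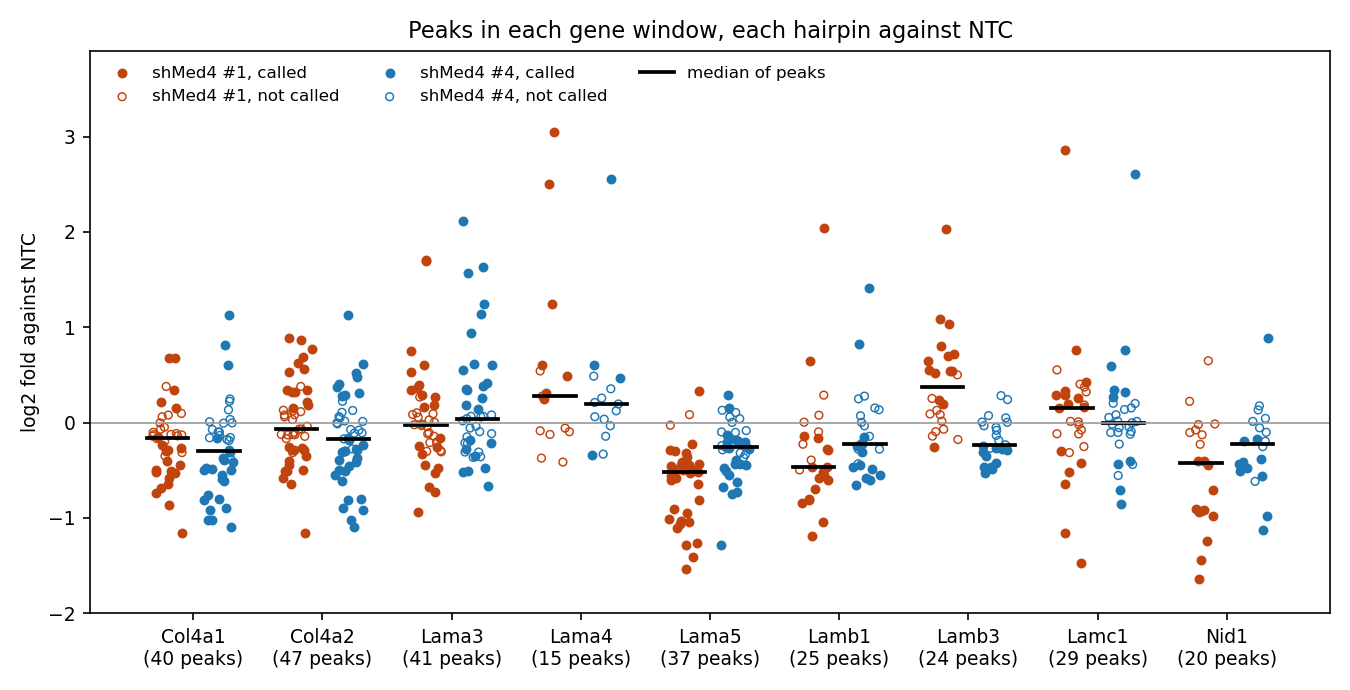
Log2 fold against NTC of every peak in each of the 9 gene windows, for shMed4 #1 and shMed4 #4. Filled points were called at adjusted p under 0.05, and black bars mark medians. The Lama5 peaks lie mostly below 0 (median -0.52 with shMed4 #1 and -0.26 with shMed4 #4), whereas the Lamb3 median is 0.38 with shMed4 #1 and -0.24 with shMed4 #4.

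Summed over its window, the signal of 8 of the 9 genes was called over both hairpins, where 37.3% of 19537 genes were lower and 31.3% higher. Col4a1, Lama5, Lamb1 and Nid1 fell, with log2 folds of -0.24, -0.32, -0.20 and -0.31. Lama4 rose by 0.21, Lama3 by 0.10, Lamc1 by 0.10 and Lamb3 by 0.07, and Col4a2 was not called (-0.03, limma adjusted p = 0.37). The first 5 of these kept their sign under every scaling tried. With chromosome medians removed, the Lamb3 sum was -0.15 and the Lamc1 sum -0.12, both called lower by limma (adjusted p = 0.00104 and 0.00876), while the Lama3 sum was no longer called (0.08). Centred on peaks away from gene ends, none of these 3 sums was called (-0.03 for Lamb3, 0.00 for Lama3 and 0.00 for Lamc1). The Lamc1 and Lamb3 sums were not called in any of the 3 other windows, for example 0.03 for Lamc1 and 0.04 for Lamb3 in the gene body alone. The Col4a2 sum was called higher in the gene body (0.05) and where Col4a2 was the nearest gene (0.05), and lower with equal library totals (-0.04), centred on the peaks outside gene ends (-0.13) and with chromosome medians removed (-0.15). Centring away from gene ends or removing chromosome medians shifted the median of all peaks by -0.10.

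The type IV collagen genes Col4a1 and Col4a2 encode the chains found in nearly all basement membranes and are transcribed in opposite directions from a shared promoter. A single peak, at chr8:11312547-11313048, covers both starts. It held 388, 525 and 537 in shMed4 #1, 335, 441 and 342 in shMed4 #4, and 763, 723 and 765 in NTC. Every hairpin library was below every NTC library. The log2 fold was -0.65 with shMed4 #1 and -1.02 with shMed4 #4 (SE 0.10 each), and -0.83 over both (SE 0.08, limma adjusted p = 7.83e-11). It was lower with shMed4 #4 than with shMed4 #1 by a log2 difference of -0.37 (limma adjusted p = 0.00189), although these groups overlapped.

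Lower peaks also lay inside both genes, beside others that rose or were not called. The pair of peaks given next, and the pair further along Col4a2, were chosen for their position after their values had been seen. At chr8:11313783-11314284, inside Col4a2, the peak averaged 168 in shMed4 #1 and 136 in shMed4 #4, against 238 in NTC (log2 fold -0.65). At chr8:11316027-11316528, also inside Col4a2, it averaged 156 in shMed4 #1 and 104 in shMed4 #4, against 224 in NTC (-0.81). On the start side of the Col4a1 midpoint, 8 of 13 peaks fell and 0 were called higher by limma (0 also at an unadjusted p under 0.05), and on the far side 2 of 8 fell and 2 rose. On the start side of the Col4a2 midpoint, 5 of 12 fell and 3 rose. The shares lower were 61.5% on the Col4a1 start side, 25% on its far side and 41.7% on the Col4a2 start side. Over chromosome 8, 23.6% of tested peaks fell and 32% rose.

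On the far side of the Col4a2 midpoint, 7 of 13 peaks rose (53.8%, against 32% over chromosome 8) and 2 fell. The peak at chr8:11367663-11368164, inside Col4a2, held 607, 637 and 640.4 in shMed4 #1, 452, 503 and 492 in shMed4 #4, and 329, 349 and 358 in NTC. The 3 groups did not overlap, and the log2 fold was 0.67 (SE 0.06, limma adjusted p = 3.37e-11). Further along, chr8:11419216-11419717 averaged 1571 in shMed4 #1 and 1125 in shMed4 #4, against 852 in NTC (0.65), and chr8:11444071-11444572 averaged 393 in shMed4 #1 and 373 in shMed4 #4, against 243 in NTC (0.65). The tallest Col4a2 peak, at chr8:11382274-11382775, averaged 5382 ± 209.9 in shMed4 #1 and 4694 ± 199 in shMed4 #4, against 4737 ± 103 in NTC (SD, n = 3 each). Over both hairpins it was not called (0.08, limma adjusted p = 0.0656), and its fold ran from -0.0345 with chromosome medians removed to 0.16 with libraries centred on gene-end peaks.

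**Figure D2:**
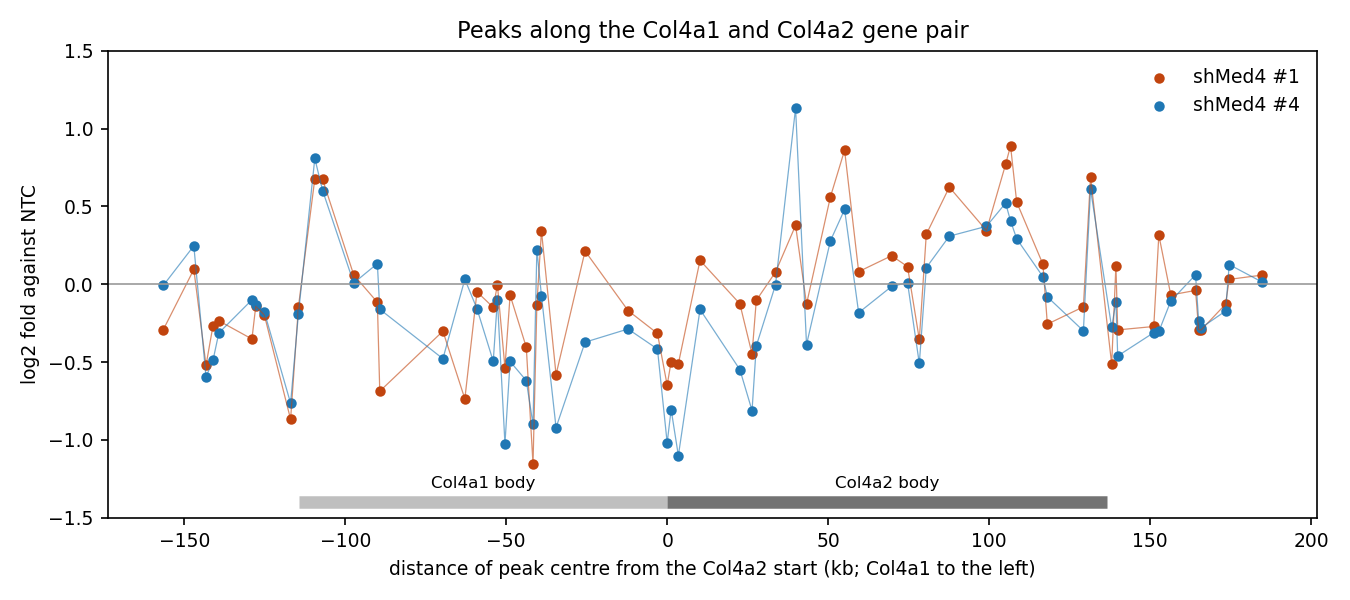
Log2 fold against NTC of each peak along Col4a1 and Col4a2, by distance in kb from the Col4a2 start, for shMed4 #1 and shMed4 #4. Col4a1 lies to the left of 0 and Col4a2 to the right. At the shared start the folds were -0.65 with shMed4 #1 and -1.02 with shMed4 #4, and several peaks in the far part of Col4a2 lie above 0 with both.

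Over the Col4a1 window 20 of 40 peaks fell (50%, against 23.6% over chromosome 8) and 3 rose, with a median log2 fold of -0.25. Peaks 50 kb to 1 Mb from Col4a1 had a median of -0.05 and all peaks of chromosome 8 one of 0.03. The lowest fold was inside Col4a1 at chr8:11270872-11271373, which held 71.2, 60.03 and 74.8 in shMed4 #1, 80.4, 85.7 and 79.4 in shMed4 #4, and 152, 143 and 167 in NTC. All hairpin libraries were below the NTC libraries (-1.03, SE 0.14). The tallest peak of the window, 24.9 kb outside Col4a1 at chr8:11173267-11173768, averaged 3583 ± 173 in shMed4 #1 and 3392 ± 129 in shMed4 #4, against 4213 ± 73.8 in NTC (-0.27). Inside Col4a1 near its far end, chr8:11203089-11203590 rose, averaging 217 ± 21.5 in shMed4 #1 and 238 ± 21.8 in shMed4 #4, against 135 ± 11.3 in NTC (0.74, SE 0.10).

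The hairpins differed along the pair. In the Col4a2 window, 20 of 47 peaks were lower with shMed4 #4 than with shMed4 #1 and 1 was higher, where 21.2% of all tested peaks were lower and 20.4% higher. The median difference was -0.20 in the window and 0.01 in peaks 50 kb to 1 Mb away. The exception was chr8:11352438-11352939, inside Col4a2, which held 77.6, 64.1 and 77.02 in shMed4 #1, 129, 113 and 129 in shMed4 #4, and 41.97, 67.8 and 60.5 in NTC. It rose with shMed4 #4 (log2 fold 1.13), and with shMed4 #1, which overlapped NTC, its fold of 0.38 was not called. Inside Col4a1, chr8:11249696-11250197 had, where the mean reached 50, the largest called difference of that gene, 0.77, and averaged 44.96 ± 3.69 in shMed4 #1 and 77.5 ± 9.51 in shMed4 #4, against 77.2 ± 20.5 in NTC.

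Lama5 encodes the alpha chain of laminins in many adult epithelial and vascular basement membranes. Its accessibility was lower along the whole gene: 34 of the 37 peaks in its window fell and 1 rose over both hairpins, and all 18 in the gene body fell. With shMed4 #4 alone, 13 of the 18 in the body were called lower and 1 higher. The start peak, at chr2:180225579-180226080, held 796, 917 and 952 in shMed4 #1, 999, 1257 and 1307 in shMed4 #4, and 1354, 1287 and 1351 in NTC. The shMed4 #1 libraries were all below the rest, while the shMed4 #4 libraries overlapped NTC. The log2 fold was -0.59 with shMed4 #1 and -0.17 with shMed4 #4 (SE 0.07 each; limma adjusted p = 1.28e-08 and 0.0456). With the hairpins fitted as 1 group, the fold over both had a limma adjusted p of 0.05003, which just missed the threshold. The median of all tested chromosome 2 peaks was -0.32 with shMed4 #1 and -0.16 with shMed4 #4.

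Inside Lama5, chr2:180220134-180220635 averaged 608 ± 29.4 in shMed4 #1 and 812 ± 79.6 in shMed4 #4, against 1247 ± 67.5 in NTC, and its log2 fold was -0.83 (SE 0.06). The lowest fold over both hairpins of any member peak was at the edge of the window, inside Osbpl2, an oxysterol-binding protein gene. There chr2:180127638-180128139 averaged 117 ± 1.72 in shMed4 #1 and 129 ± 10.7 in shMed4 #4, against 315 ± 13.9 in NTC (-1.35, SE 0.10). The tallest peak, chr2:180273367-180273868, is nearest to Cables2 and averaged 4351 ± 168 in shMed4 #1 and 5485 ± 389 in shMed4 #4, against 5865 ± 102 in NTC (-0.27). The 1 peak that rose, chr2:180170164-180170665, is nearest to the proteasome receptor gene Adrm1 and averaged 1617 ± 14.9 in shMed4 #1 and 1429.6 ± 53.03 in shMed4 #4, against 1283 ± 15.7 in NTC (0.24).

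Chromosome 2 was itself lower. Of its tested peaks 52.4% fell (median -0.25), and of those 50 kb to 1 Mb from Lama5 55.6% (median -0.31). The median in the Lama5 window was -0.38, with 91.9% lower. With chromosome medians removed, 29 of its peaks fell and 1 rose, and the summed window was lower by a log2 fold of -0.20 (limma adjusted p = 3.31e-04). Between the hairpins, 22 of 37 Lama5 peaks were higher with shMed4 #4 than with shMed4 #1 and 3 lower, where 45.5% of the peaks 50 kb to 1 Mb away were higher. The summed difference of 0.26 became 0.07 with chromosome medians removed and was no longer called (limma adjusted p = 0.292).

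**Figure D3:**
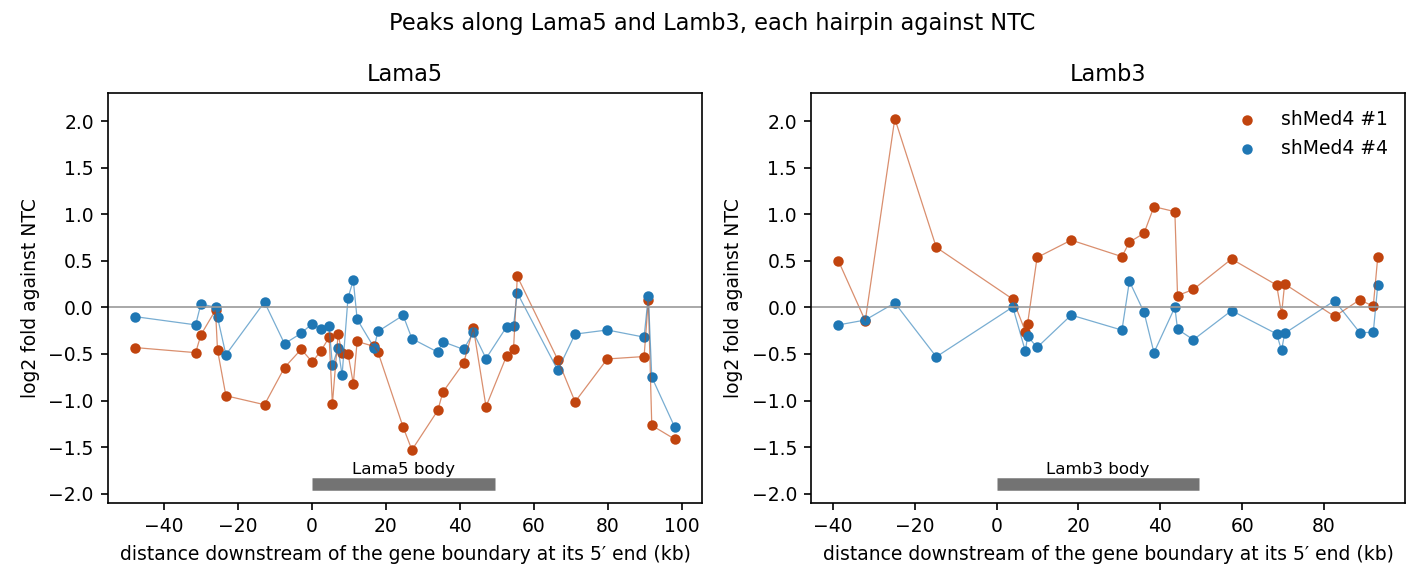
Log2 fold against NTC of each peak along Lama5 and Lamb3, by distance in kb downstream of the 5′ boundary of the gene, for shMed4 #1 and shMed4 #4. Lama5 peaks lie mostly below 0 with both hairpins, whereas Lamb3 peaks lie mostly above 0 with shMed4 #1 (median 0.38) and below it with shMed4 #4 (median -0.24).

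Lama4, a laminin alpha chain of vascular, muscle and fat basement membranes, had no peak within 1 kb of either gene end. Of the 15 peaks in its window 6 rose (40%) and 1 fell over both hairpins. The share higher was 21.5% in peaks 50 kb to 1 Mb away, 28.9% over chromosome 10 and 27.9% over all tested peaks. With shMed4 #1, 7 of the 15 were higher (46.7%, against 26.6% of those 50 kb to 1 Mb away and 32.6% over chromosome 10). With shMed4 #4, 3 were higher (20%, against 21.5% of those 50 kb to 1 Mb away and 23.6% over chromosome 10). At chr10:39044499-39045000, inside Lama4, the value was 353, 325 and 336 in shMed4 #1, 369, 340.2 and 339 in shMed4 #4, and 74.3, 48.3 and 56.5 in NTC. The hairpin groups overlapped each other and lay above every NTC library (log2 fold 2.53, SE 0.11, limma adjusted p = 3.57e-21). The tallest peak of the window, inside Ccn6 at chr10:39157289-39157790, averaged 1705 ± 18.5 in shMed4 #1 and 1563 ± 119 in shMed4 #4, against 1432 ± 14.7 in NTC (0.19), and it was not called with chromosome medians removed (0.0798). The 1 that fell, inside Tube1 at chr10:39133743-39134244, averaged 801 ± 15.95 in shMed4 #1 and 689 ± 33.3 in shMed4 #4, against 874 ± 17.6 in NTC (-0.23).

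Another site inside Lama4 was higher with shMed4 #1. At chr10:39023412-39023913 the value was 155, 145 and 158 in shMed4 #1, 17.3, 31.97 and 28.2 in shMed4 #4, and 16.1, 16.4 and 20.5 in NTC. The shMed4 #4 libraries overlapped NTC and the shMed4 #1 libraries stood above both. The log2 fold was 3.05 (SE 0.27) with shMed4 #1, and with shMed4 #4 it was 0.49 and not called. The difference of shMed4 #4 from shMed4 #1 was -2.56 (SE 0.27, limma adjusted p = 6.31e-10).

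Lama3, the alpha chain of the laminin that anchors epithelia through hemidesmosomes, was mixed. Of 41 peaks 14 rose and 11 fell over both hairpins, where chromosome 18 had 24.5% higher and a median of -0.08. A weak peak at one gene end, chr18:12333698-12334199, held 72.8, 66.5 and 80.3 in shMed4 #1, 134, 143 and 89.96 in shMed4 #4, and 40.4, 65.7 and 47.5 in NTC. The 3 groups did not overlap, and the log2 fold was 0.89 (SE 0.18, limma adjusted p = 6.51e-05). The annotation used gives no strand for Lama3, so which end is the start was not settled here.

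The highest folds near Lama3 lay inside the neighbouring gene Ankrd29. The peak at chr18:12285791-12286292 averaged 289.7 ± 9.77 in shMed4 #1 and 388 ± 39.2 in shMed4 #4, against 89.4 ± 13.2 in NTC (log2 fold 1.90, SE 0.10). The peak at chr18:12294799-12295300 averaged 438 ± 13.4 in shMed4 #1 and 416 ± 13.9 in shMed4 #4, against 134 ± 9.73 in NTC (1.66), and that at chr18:12289265-12289766 averaged 117 ± 11.8 in shMed4 #1 and 208 ± 32.8 in shMed4 #4, against 70.4 ± 19.3 in NTC (1.16). In all 3 the groups with hairpins lay above NTC. Another Ankrd29 peak, chr18:12283503-12284004, averaged 246 ± 21.00 in shMed4 #1 and 549 ± 23.3 in shMed4 #4, against 249.7 ± 28.8 in NTC, and it rose with shMed4 #4 (1.14) and was not called with shMed4 #1 (-0.02). Inside Lama3 the lowest fold was at chr18:12348595-12349096, which averaged 117 ± 15.2 in shMed4 #1 and 157 ± 18.3 in shMed4 #4, against 225 ± 11.7 in NTC (-0.73). The tallest peak of the window, inside Ttc39c at chr18:12611032-12611533, was not called, with 4551 ± 52.7 in shMed4 #1 and 4918 ± 371 in shMed4 #4, against 4693 ± 195 in NTC.

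**Figure D4:**
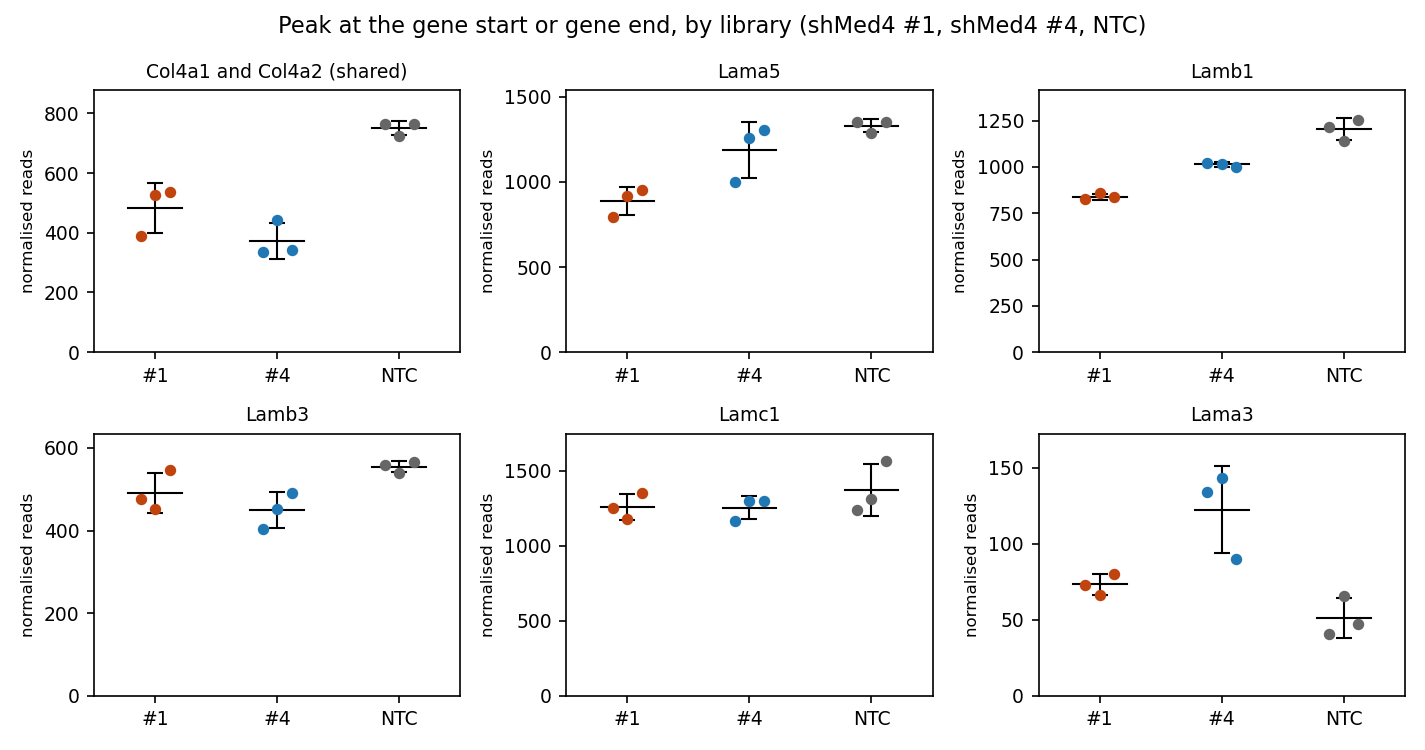
Normalised reads in each library at the start peaks of Col4a1 and Col4a2 (shared), Lama5, Lamb1 and Lamb3 and at the gene-end peaks of Lamc1 and Lama3. Points are libraries, and bars the mean and SD of 3. At the collagen pair and Lamb1 all hairpin libraries lie below NTC, at Lama3 all lie above it, and at Lamc1 the groups overlap.

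Lamb1, a widely expressed laminin beta chain, was less accessible at its start. The peak at chr12:31264752-31265253 held 824, 857 and 835 in shMed4 #1, 1022, 1018 and 998 in shMed4 #4, and 1217, 1139 and 1253 in NTC. The 3 groups did not overlap, with log2 folds of -0.52 for shMed4 #1 and -0.25 for shMed4 #4 (SE 0.06 each; limma adjusted p = 1.08e-09 and 4.96e-04). The median of all tested chromosome 12 peaks was -0.24 with shMed4 #1 and -0.15 with shMed4 #4. Over the window 12 of 25 peaks fell (48%) and 2 rose. That share is near those of chromosome 12 (46.9% lower) and of the peaks 50 kb to 1 Mb away (57.7%).

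The tallest Lamb1 peak, inside the gene at chr12:31271338-31271839, was not called, with 2559 ± 53.8 in shMed4 #1 and 2676 ± 72.5 in shMed4 #4, against 2740.0 ± 26.99 in NTC (-0.07). The highest fold was 12.7 kb outside the gene. At chr12:31252197-31252698 the value was 142, 117 and 157 in shMed4 #1, 76.1, 95.9 and 95.3 in shMed4 #4, and 39.5, 32.9 and 27.00 in NTC. The 3 groups did not overlap (log2 fold 1.72, SE 0.17, limma adjusted p = 7.27e-11), and shMed4 #4 was below shMed4 #1 (-0.63). Inside Lamb1, chr12:31296705-31297206 also rose (167 ± 23.2 in shMed4 #1 and 189.6 ± 23.1 in shMed4 #4, against 106 ± 9.67 in NTC; 0.74), and chr12:31286553-31287054 fell (38.00 ± 9.06 in shMed4 #1 and 59.1 ± 11.04 in shMed4 #4, against 87.03 ± 17.1 in NTC; -0.87).

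Lamb3, the beta chain of the hemidesmosomal laminin, moved in opposite directions with the hairpins. With shMed4 #1, 13 of its 24 peaks rose (54.2%, against 27.9% of all tested peaks) and 1 fell. With shMed4 #4, 11 fell (45.8%, against 24.3% of all tested peaks) and none was called higher by limma (0 also at an unadjusted p under 0.05). Of the 24 peaks, 17 were lower with shMed4 #4 than with shMed4 #1 and none was called higher (0 also at an unadjusted p under 0.05). The summed window held 11984, 11551 and 12061 in shMed4 #1, 8622, 9294 and 9229 in shMed4 #4, and 9862, 9815 and 9890.4 in NTC, and the 3 groups did not overlap. The log2 fold of the sum was 0.27 with shMed4 #1 and -0.12 with shMed4 #4, and their difference was -0.39 (SE 0.03, limma adjusted p = 1.88e-09).

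The surroundings of Lamb3 rose as well with shMed4 #1. Of the peaks 50 kb to 1 Mb away, 51.4% were higher with shMed4 #1, and 42% were lower with shMed4 #4 than with shMed4 #1. Against NTC, however, 15.9% of these surrounding peaks were lower with shMed4 #4 and 31.2% higher (median log2 fold 0.04). Their median difference between the hairpins was -0.23, against -0.53 in the Lamb3 window. With chromosome medians removed, the summed fold was 0.01 with shMed4 #1, which was not called, and -0.31 with shMed4 #4. Their difference remained called (-0.32, limma adjusted p = 1.10e-06).

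The site with the greatest hairpin difference near Lamb3 lay 24.8 kb outside it, nearest to G0s2, a lipolysis inhibitor gene, at chr1:193269257-193269758. It held 692, 624 and 681 in shMed4 #1, 169.5, 162 and 171 in shMed4 #4, and 167, 166 and 153 in NTC. The shMed4 #1 libraries stood apart and the others overlapped, with log2 folds of 2.03 (SE 0.10) for shMed4 #1 and 0.05 for shMed4 #4. The difference of shMed4 #4 from shMed4 #1 was -1.98 (SE 0.10, limma adjusted p = 1.91e-18). The Lamb3 start peak, chr1:193301673-193302174, averaged 492 ± 48.4 in shMed4 #1 and 449 ± 42.9 in shMed4 #4, against 555 ± 13.3 in NTC (-0.24), and its call was lost with the hairpins fitted as 1 group (adjusted p = 0.0604). The neighbouring chr1:193301146-193301647 averaged 416 ± 25.8 in shMed4 #1 and 358 ± 21.1 in shMed4 #4, against 497 ± 6.88 in NTC (-0.37). The tallest peak, chr1:193298073-193298574, was not called, with 4920.2 ± 216 in shMed4 #1 and 4645 ± 299.6 in shMed4 #4, against 4623 ± 104 in NTC.

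**Figure D5:**
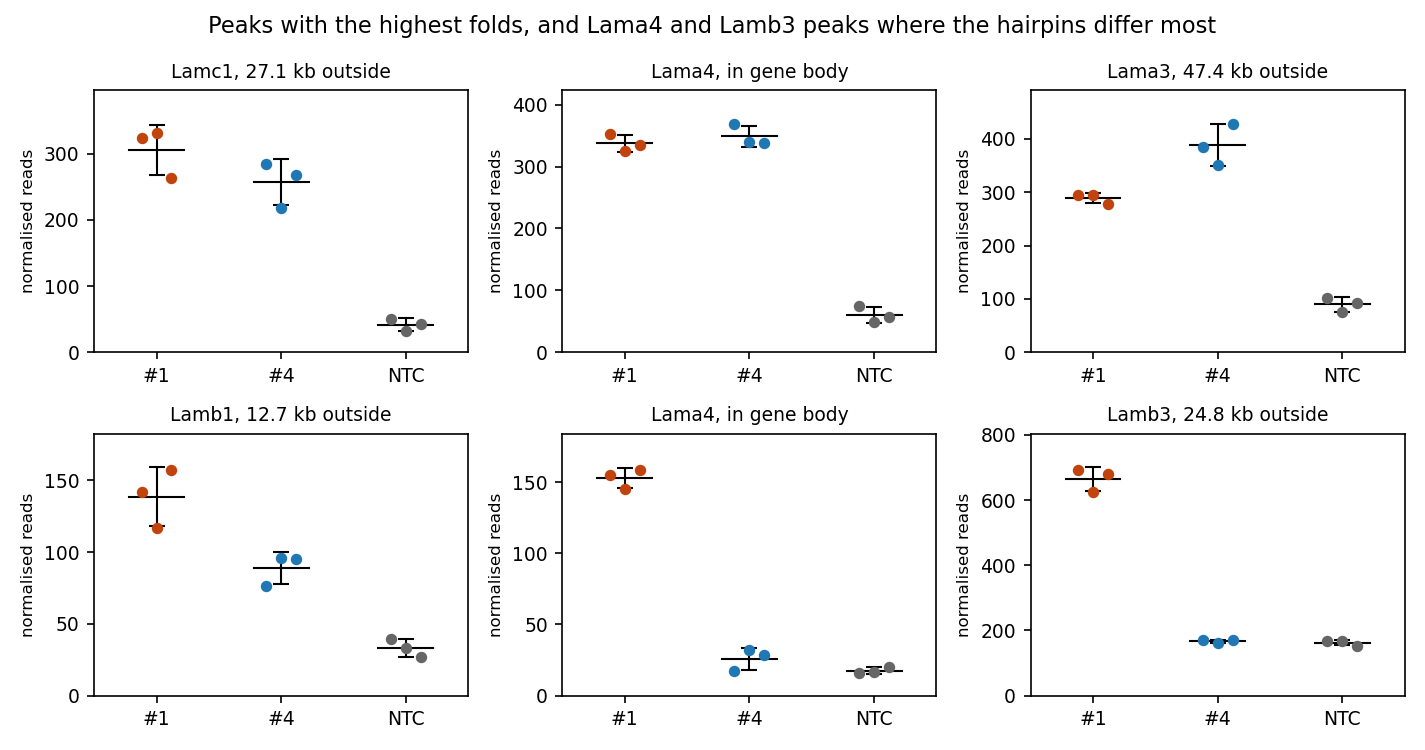
Normalised reads in each library at the 4 member peaks with the highest folds among those called with each hairpin, near Lamc1, Lama4, Lama3 and Lamb1, and at the Lama4 and Lamb3 peaks with the largest hairpin difference. Points are libraries, and bars the mean and SD of 3. The first 4 lie above NTC in all hairpin libraries, and the last pair stand high in shMed4 #1, averaging 153 and 666.

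Lamc1 encodes the gamma chain of most laminins. Its gene-end peak at chr1:153332580-153333081 held 1249, 1178 and 1349 in shMed4 #1, 1163, 1299 and 1300.0 in shMed4 #4, and 1236, 1311 and 1566 in NTC. The groups overlapped, and the log2 fold of -0.12 was not called (SE 0.06, limma adjusted p = 0.0802). It was called lower without NTC replicate 1 (-0.19), without shMed4 #1 replicate 3 (-0.15), with equal library totals (-0.14), centred on the peaks outside gene ends (-0.22), with the replicate block (-0.12) and with chromosome medians removed (-0.34). Of 29 peaks in the window 9 rose (31%) and 5 fell, where 35% of peaks 50 kb to 1 Mb away were higher.

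The highest fold of the member peaks lay 27.1 kb outside Lamc1, at chr1:153191549-153192050. It held 324, 332 and 263 in shMed4 #1, 285, 219 and 268 in shMed4 #4, and 50.8, 31.8 and 42.5 in NTC. Each hairpin library was above every NTC library (log2 fold 2.74, SE 0.13, limma adjusted p = 6.91e-20). The tallest peak of the window, chr1:153202093-153202594, 16.6 kb outside Lamc1, averaged 3957 ± 156 in shMed4 #1 and 3945 ± 161 in shMed4 #4, against 3156 ± 179.5 in NTC (0.33), and it was not called with chromosome medians removed (0.11). Inside Lamc1, chr1:153269673-153270174 averaged 71.4 ± 8.95 in shMed4 #1 and 231 ± 40.1 in shMed4 #4, against 199.7 ± 26.4 in NTC. It fell with shMed4 #1 (-1.47), was not called with shMed4 #4 (0.20), and differed between shMed4 #4 and shMed4 #1 by 1.67 (SE 0.14).

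Nid1 encodes nidogen, the protein that bridges laminin and type IV collagen. No peak lay within 1 kb of its annotated start, and the nearest, 1200 bp away, was not called (143 in shMed4 #1 and 174 in shMed4 #4, against 154 in NTC). Of 20 peaks in the window 13 fell (65%) and 1 rose, where 40.7% of peaks 50 kb to 1 Mb away and 30.9% of chromosome 13 were lower. The tallest peak, 17.1 kb outside the gene at chr13:13529133-13529634, held 1484, 1468 and 1540.4 in shMed4 #1, 1559, 1574 and 1466 in shMed4 #4, and 2023, 2024 and 2069.9 in NTC. All hairpin libraries were below NTC and overlapped each other (-0.43, SE 0.04, limma adjusted p = 1.94e-10).

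In the Nid1 body, 6 of 9 peaks fell with shMed4 #1 (66.7%, against 24.2% over chromosome 13). With shMed4 #4, 3 fell (33.3%), near the 34.4% of chromosome 13 and below the 50.8% of peaks 50 kb to 1 Mb away. Between the hairpins, 5 of the 9 were higher with shMed4 #4 than with shMed4 #1 (55.6%, against 14.6% over chromosome 13). Around the gene, the peaks 50 kb to 1 Mb away ran the other way between the hairpins, with 3.39% higher and 33.9% lower with shMed4 #4. At chr13:13474944-13475445 the value was 27.2, 27.6 and 40.7 in shMed4 #1, 75.3, 116 and 75.8 in shMed4 #4, and 79.1, 109 and 75.3 in NTC. The shMed4 #4 libraries overlapped NTC, and the difference from shMed4 #1 was 1.45 (SE 0.23, limma adjusted p = 2.35e-06). Over both hairpins its fold of -0.71 was called, but the fold was -1.44 with shMed4 #1 and 0.01, not called, with shMed4 #4. The call over both was lost with the hairpins fitted as 1 group (limma adjusted p = 0.215) and without NTC replicate 2 (-0.55). Outside the gene, chr13:13407433-13407934 had the lowest fold named for Nid1 and averaged 47.9 ± 11.4 in shMed4 #1 and 40.9 ± 5.74 in shMed4 #4, against 90.1 ± 5.30 in NTC (-1.03), and chr13:13393394-13393895, inside Gpr137b, averaged 191 ± 15.4 in shMed4 #1 and 191 ± 12.6 in shMed4 #4, against 378 ± 9.32 in NTC (-0.98).

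The other genes of the basement membrane were read at their start peaks, where 45.7% of 12121 genes were lower and 9.98% higher over both hairpins, with a median log2 fold of -0.11. Of 9 other laminin and type IV collagen chains, 5 had a start peak, of which 1 was lower and none was called higher by limma, with 0 also at an unadjusted p under 0.05 (median -0.11). The gamma chain gene Lamc3 fell, with 1246 ± 111 in shMed4 #1 and 1623 ± 138 in shMed4 #4, against 1752 ± 29.4 in NTC, log2 fold -0.30. With shMed4 #4 alone its fold of -0.11 was not called. Lamc3, and Itga6 and Sdc4 given below, lie on chromosome 2, where 52.4% of tested peaks fell over both hairpins (median -0.25). The chromosome 2 median was -0.32 with shMed4 #1 and -0.16 with shMed4 #4. No strand was given for Lamc3 and Itga6, so either gene end counted as a start.

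Of 19 linkers and proteoglycans 10 had a start peak, of which 5 fell and 2 rose (median -0.10). Tinagl1, a matrix glycoprotein, fell (1483 ± 40.97 in shMed4 #1 and 1689 ± 124 in shMed4 #4, against 1862 ± 109 in NTC, log2 fold -0.23), as did the perlecan gene Hspg2 (844 ± 19.1 in shMed4 #1 and 819.8 ± 38.5 in shMed4 #4, against 945 ± 14.6 in NTC, log2 fold -0.18). The anchoring fibril collagen gene Col7a1 rose (981 ± 31.1 in shMed4 #1 and 866 ± 21.8 in shMed4 #4, against 793 ± 42.2 in NTC, log2 fold 0.22), although with shMed4 #4 alone its fold of 0.13 was not called. Of 14 receptors 10 had a start peak, of which 4 fell and 3 rose (median -0.08). The laminin-binding integrin gene Itga6 fell (661 ± 42.3 in shMed4 #1 and 633 ± 21.3 in shMed4 #4, against 826 ± 62.3 in NTC, log2 fold -0.35), the collagen-binding integrin gene Itga2 rose (299.6 ± 30.7 in shMed4 #1 and 276 ± 18.6 in shMed4 #4, against 200.4 ± 6.02 in NTC, log2 fold 0.52), and the syndecan gene Sdc4 fell (1357 ± 87.6 in shMed4 #1 and 1800.2 ± 170.0 in shMed4 #4, against 1942 ± 71.5 in NTC, log2 fold -0.32), although with shMed4 #4 alone its fold of -0.11 was not called.

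Of 14 genes of collagen assembly and crosslinking 11 had a start peak, of which 5 fell and 1 rose (median -0.13). Pxdn, the peroxidase that crosslinks type IV collagen, fell (724 ± 10.6 in shMed4 #1 and 744 ± 32.02 in shMed4 #4, against 945 ± 25.3 in NTC, log2 fold -0.36). It lies on chromosome 12, where 46.9% of tested peaks fell over both hairpins (median -0.21). Serpinh1, the collagen chaperone, rose (2259 ± 72.7 in shMed4 #1 and 2356 ± 146 in shMed4 #4, against 1986 ± 35.5 in NTC, log2 fold 0.22). The medians of the 4 lists lie near that of all start peaks.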

How the data were processed

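ATAC-seq was done on 9 libraries of D2A1-d cells, 3 in each of 3 groups. The authors deposited 1 table of reads per peak as normalised signal, and the authors' file name says that they scaled it with DESeq2. Trim Galore, BWA, MACS2, featureCounts and Subread and the builds mm10 and GRCm38 are named in the submitters' processing notes, without versions. The sources used here do not state if MACS2 saw single or pooled libraries, or if coordinates count from 0. Coordinates are printed as deposited.

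The deposited signal values are whole multiples of 1 step per library, which gave the reads in peaks. The text's limma results (limma 3.58.1, R 4.3.3) use its moderated linear model with an intensity trend, on log2(signal + 1), over the 146729 of 146734 peaks with a mean of at least 10, in 1 fit of all 9 libraries, with Benjamini-Hochberg adjustment over all tested peaks. Window sums were fitted over 19537 genes in the same way. The scripts were tested on simulated data. Python 3.11.15, pandas 2.3.3 and matplotlib 3.10.9 made the tables and figures.

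Gene positions and promoters are RefSeq GRCm38.p6. A start peak has its centre within 1 kb of an annotated start, or of either gene end where the strand is not given. For each gene the text names its start peak, its tallest peak, the called peaks of highest and lowest fold and of largest hairpin difference (mean of at least 50), plus the 10 highest and 10 lowest folds called with each hairpin, and says where a peak was chosen otherwise. Members and gene lists were chosen with earlier results of these data known. Nothing states that the libraries came from separate cultures beyond their label as biological replicates, so p-values cover the spread among libraries.

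Some listed genes are not reported here. Alternatives tried were pseudocounts, filters, scalings, windows, thresholds, a fit with both hairpins as 1 group, a replicate block and leaving out each library.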

Additional observations from a re-analysis of the deposited data

Results flagged for a closer look

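At 11 member peaks the hairpins were called in opposite directions against NTC and the difference of shMed4 #4 from shMed4 #1 was itself called by limma. They were picked out for these calls, after the values had been seen, and 6 of them lie in the Lamb3 window. Peaks called in opposite directions made up 4.25% of member peaks, against 3.17% of all tested peaks.

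Around Lamb3, chr1:193332549-193333050 averaged 193 in shMed4 #1 and 65.2 in shMed4 #4, against 90.3 in NTC, a log2 difference of shMed4 #4 from shMed4 #1 of -1.57. The same difference was -1.18 at chr1:193279388-193279889 (734 in shMed4 #1 and 328 in shMed4 #4, against 469.9 in NTC), -0.97 at chr1:193304007-193304508 (162 in shMed4 #1 and 82.03 in shMed4 #4, against 110.4 in NTC) and -0.79 at chr1:193324733-193325234 (344 in shMed4 #1 and 199 in shMed4 #4, against 236 in NTC). It was -0.54 at chr1:193342182-193342683 (678 in shMed4 #1 and 465 in shMed4 #4, against 592 in NTC) and -0.52 at chr1:193362507-193363008 (351 in shMed4 #1 and 243 in shMed4 #4, against 297 in NTC). In all 6 the level was above NTC in shMed4 #1 and below it in shMed4 #4. That NTC lies between the hairpins follows from how these peaks were chosen.

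The Lama5 peak chr2:180214485-180214986 had the other order, averaging 399 in shMed4 #1 and 863 in shMed4 #4, against 704 in NTC, with a difference of 1.11. Inside Col4a1 the difference was -0.59 at chr8:11287045-11287546 (1188 in shMed4 #1 and 791 in shMed4 #4, against 1024 in NTC), and inside Col4a2 it was -0.32 at chr8:11322755-11323256 (2609.7 in shMed4 #1 and 2098 in shMed4 #4, against 2345 in NTC). It was -0.62 beyond the far end of Col4a2 at chr8:11465283-11465784 (645 in shMed4 #1 and 421 in shMed4 #4, against 518 in NTC), and -0.88 at the Lama3 peak chr18:12566808-12567309 (479 in shMed4 #1 and 261 in shMed4 #4, against 364 in NTC).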

How the results depend on the processing

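Of the 47 named peaks 40 were called over both hairpins, and 30 of these kept their direction and call under every alternative other than the stricter thresholds. Centred on gene-end peaks, the count lower with shMed4 #4 was 62. With the hairpins fitted as 1 group, 32 member peaks were higher over both, and 8 named calls were lost. At 1.5-fold or more, the counts higher and lower were 21 and 36 over both hairpins, 26 and 43 with shMed4 #1, 20 and 22 with shMed4 #4, and 25 and 19 for shMed4 #4 over shMed4 #1, and 0 of the 9 summed genes reached it. Within 10 kb of the gene bodies (171 peaks), 33 were higher over both, 26 with shMed4 #4 and 35 with shMed4 #4 over shMed4 #1. In gene bodies alone (147 peaks), 32 were higher and 60 lower over both, 57 lower with shMed4 #1, 24 higher and 54 lower with shMed4 #4, and 29 higher with shMed4 #4 over shMed4 #1. Where the nearest gene was a member (182 peaks), 27 were higher with shMed4 #4. Smaller windows hold fewer peaks.

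Reversals were seen at 4 peaks, none of them called as deposited. The tallest Col4a2 peak, 11382274, was -0.0152 with libraries centred away from gene ends and -0.0345 with chromosome medians removed. The tallest Lama3 peak, 12611032, was -0.00503 with equal library totals, -0.089 centred away from gene ends, -0.00982 with chromosome medians removed, and from -0.0149 (without shMed4 #4 replicate 3; -0.012 without NTC replicate 1) to 0.0447 (without NTC replicate 2) when 1 library was left out. The tallest Lamb1 peak, 31271338, was 0.00951 centred on gene-end peaks and 0.036 with chromosome medians removed. The tallest Lamb3 peak, 193298073, was -0.0529 centred away from gene ends and -0.17 with chromosome medians removed, where it was called. The cause was not tested.

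Leaving out 1 library at a time gave 41 to 52 higher and 96 to 103 lower over both hairpins, 51 to 65 and 92 to 109 with shMed4 #1, 34 to 43 and 80 to 94 with shMed4 #4, 47 to 52 and 55 to 66 for shMed4 #4 over shMed4 #1, and 7 to 8 genes. Same-numbered libraries deviated together little, with correlations of -0.01 to 0.07, against -0.10 to 0.04 for libraries with different numbers. With 3 libraries in each group, these correlations cannot settle if the numbers pair the libraries. With the replicate number as a block, 53 peaks were higher and 108 lower over both, 63 and 106 with shMed4 #1, 42 and 97 with shMed4 #4, 56 and 67 for shMed4 #4 over shMed4 #1, and 8 genes were called. The block added calls at the tallest Col4a2 peak and the Lamc1 gene-end peak. The planned edgeR and DESeq2 fits were not run. Depth limits the peaks with the lowest values, where a step of 1 read is a larger share.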
